A study of Mus musculus with 2 samples.

Results

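The genes of the LIF receptor and STAT3 pathway examined here were Lifr, Il6st, Osmr, Jak1, Stat3, Socs2, Socs3, Cish, Pim1 and Pim3. They were taken as all probe sets of the array whose platform annotation gives 1 gene symbol that is one of these 10. That gave 14 probe sets out of the 23521 with a single symbol and 33793 in all. Socs2, Socs3, Cish and Pim1 had 2 probe sets each and the other 6 genes had 1 each.

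Transcript levels were compared between 2 samples of mouse embryonic stem cells of the Niwa line, 1 from a stable EWS-OCT4A-GFP line and 1 from a stable line with GFP alone. EWS-OCT4A is a fusion of the EWS protein with OCT4A, the pluripotency isoform of the transcription factor OCT4. Both lines grew with LIF in stem cell medium, and doxycycline was added to both at 1 µg/ml to bring down their own OCT-4. The sources used here give neither the promoter of the transgenes, nor the length of treatment, nor whether a stable line is 1 clone. No sample without doxycycline was included, so a difference does not show which of the lines departs from its untreated state. Each group has 1 sample, so no difference below has a replicate check or a p-value.

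LIF is the cytokine that keeps mouse embryonic stem cells undifferentiated in culture. It binds the receptor LIFR, which pairs with the shared signalling subunit gp130 (encoded by Il6st), and JAK kinases attached to the receptors then phosphorylate STAT3. Phosphorylated STAT3 enters the nucleus and activates genes of the pluripotency network together with feedback genes such as Socs3, whose products bind receptors or JAKs and damp the signal. The same receptor complex also feeds the SHP2-ERK and PI3K-AKT branches.

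The feedback genes are known for STAT sites near their starts, so the promoters were searched for the letters TTCNNNGAA, the core to which STAT dimers bind and which reads the same on both strands. RefSeq promoter windows (GRCm38.p6, 250 bases before to 50 after a start) were at hand for 9 of the 10 genes in 11 windows, and not for Socs2. The motif was found in 2 of the 11 windows, those of Cish and Socs3, against 8.30% of all 32851 windows. The Cish window holds it at 2 places, which 0.457% of all windows do. The sites are shown in 30-base stretches because they mark which feedback genes carry a match. Capitals mark the motif.
Cish: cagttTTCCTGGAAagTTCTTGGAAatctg
Socs3: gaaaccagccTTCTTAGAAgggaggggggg
The Cish stretch is chr9:107296654-107296683 on the plus strand, and its first match begins at the annotated start. The Socs3 stretch is chr11:117969501-117969530 on the minus strand, and its match begins 154 bases before the start. The POU octamer ATGCAAAT, searched on both strands, was in 0 of the 11 windows and in 1.74% of all windows. A match is a string of letters and not a measured binding site.

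Values are the authors' RMA summaries, taken as log2, and a difference is EWS-OCT4A-GFP minus GFP. A probe set was called higher or lower when it differed by at least 2-fold, a log2 difference of 1, with the larger of its values no lower than 4.10, the median over both arrays, called the floor here. By this rule 3 of the 14 member probe sets were higher and 2 lower, and 9 stayed within 2-fold or under the floor. Among all 23521 single-symbol probe sets 5.6% were higher and 7.04% lower. Of the 14195 that reached the floor, 9.28% were higher and 11.7% lower. Of the 14 member probe sets 12 reached the floor on at least 1 array, 8 reached it on both, and the 2 of Cish on neither.

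**Figure D1:**
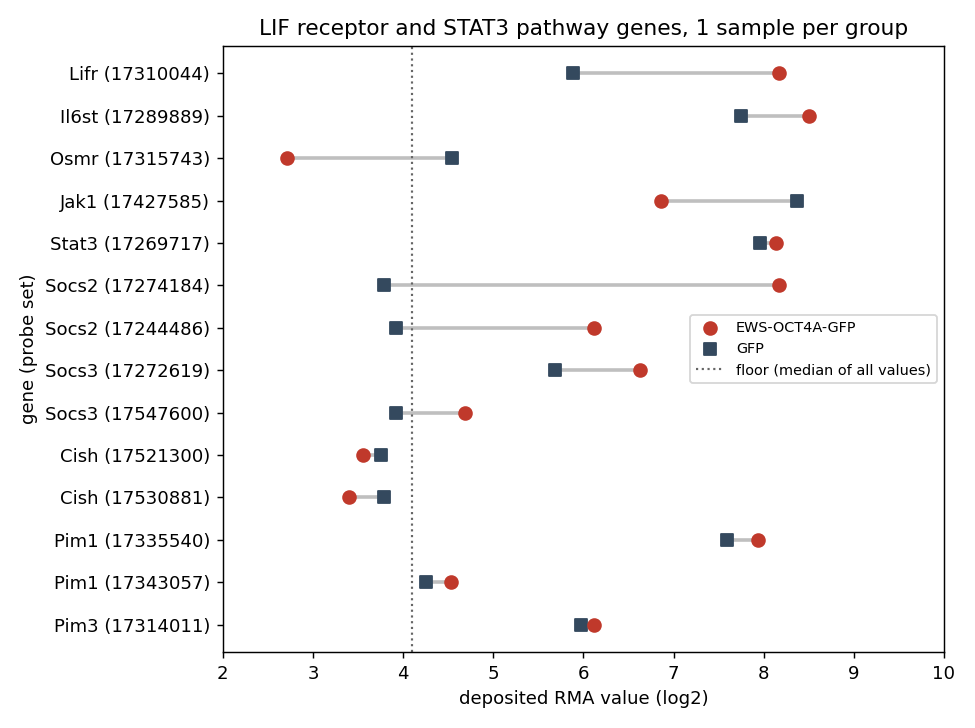
Deposited RMA value (log2, horizontal axis) of each of the 14 member probe sets (rows) in EWS-OCT4A-GFP cells (red circles) and the GFP sample (dark squares), with 1 sample per group and no error bars. The widest gaps are those of Socs2, with 8.17 against 3.79, Lifr, with 8.17 against 5.89, and the second Socs2 probe set, with 6.12 against 3.92, all toward the EWS-OCT4A-GFP sample, while Osmr and Jak1 lie the other way.

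The 3 receptor genes differed in different directions. Lifr, the LIF-binding subunit (probe set 17310044), read 8.17 in EWS-OCT4A-GFP cells and 5.89 in GFP cells, a log2 difference of 2.28 or 4.86-fold. Both values lay well above the floor, and 158 of the other single-symbol probe sets had a larger positive difference. The samples are bulk RNA, so fewer cells of a type and less RNA per cell cannot be told apart here or below.

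Il6st, the gp130 subunit shared by the receptors of LIF, oncostatin M, IL-6 and CNTF (probe set 17289889), read 8.50 in EWS-OCT4A-GFP cells and 7.75 in GFP cells. Its difference of 0.75, or 1.68-fold, had the same sign as that of Lifr and stayed within 2-fold. Osmr, the oncostatin M receptor subunit, which also pairs with gp130 (probe set 17315743), read 2.71 in EWS-OCT4A-GFP cells and 4.54 in GFP cells. That is a log2 difference of -1.83, with the EWS-OCT4A-GFP value under the floor. With that value set to the floor the difference was -0.44, so its size is uncertain, and the call was lost when the floor was put on the mean of the pair.

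Lifr and Osmr are neighbours in the RefSeq gene order of mouse chromosome 15, with 0 protein-coding genes between them. Rictor, the next protein-coding gene on the Osmr side and a subunit of the mTORC2 kinase complex, read 7.85 in EWS-OCT4A-GFP cells and 7.49 in GFP cells. Egflam, next to Lifr on the other side and the gene of the matrix protein pikachurin, read 3.49 and 3.64 in the same order of samples. Both Egflam values were under the floor, so they do not show whether it differed. Rictor did not differ by 2-fold. The neighbourhood was examined after the values of Lifr and Osmr were known.

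Jak1, the tyrosine kinase that gp130-type receptors depend on most (probe set 17427585), read 6.86 in EWS-OCT4A-GFP cells and 8.37 in GFP cells. The log2 difference was -1.51, which is 2.85-fold lower in EWS-OCT4A-GFP cells. Both values were well above the floor. Stat3, the transcription factor that JAK1 phosphorylates (probe set 17269717), read 8.14 in EWS-OCT4A-GFP cells and 7.96 in GFP cells, a difference of 0.17. The 2 samples thus read nearly alike for Stat3 while its upstream kinase gene differed by more than 2-fold. Transcript levels do not report the phosphorylation of STAT3, which was not measured.

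The SOCS family genes, whose products inhibit cytokine receptors, did not share a pattern. Socs2, which encodes an inhibitor best known for restraining growth hormone signalling, read 8.17 in EWS-OCT4A-GFP cells and 3.79 in GFP cells at probe set 17274184. This difference of 4.38, or 20.8-fold, was exceeded by 14 of the other single-symbol probe sets on the array. The second Socs2 probe set, 17244486, read 6.12 in EWS-OCT4A-GFP cells and 3.92 in GFP cells, a difference of 2.20 or 4.59-fold. Both probe sets had GFP values under the floor, and with those set to the floor the differences were 16.8-fold and 4.06-fold. The probe sets agree in sign and differ by 2.18 in the size of the log2 difference, and the sources used here do not say which parts of the transcript they cover.

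Socs3, the feedback inhibitor that binds gp130 and JAKs, read 6.63 in EWS-OCT4A-GFP cells and 5.68 in GFP cells at probe set 17272619, a difference of 0.94 or 1.92-fold, just short of the 2-fold size. Its second probe set, 17547600, read 4.69 in EWS-OCT4A-GFP cells and 3.92 in GFP cells, a difference of 0.76. The GFP value of the second probe set was under the floor, and with it set to the floor the difference was 0.59. Both Socs3 differences lie on the side of Socs2 but are smaller. Cish, a SOCS family gene known as a STAT5 target, read 3.56 in EWS-OCT4A-GFP cells and 3.76 in GFP cells at probe set 17521300. At probe set 17530881 it read 3.40 in EWS-OCT4A-GFP cells and 3.79 in GFP cells. All 4 Cish values were under the floor, so its differences of -0.20 and -0.39 cannot be read as a change.

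Pim1 and Pim3 encode serine/threonine kinases that promote survival, and their values were close in both samples. Pim1 read 7.94 in EWS-OCT4A-GFP cells and 7.59 in GFP cells at probe set 17335540, and 4.53 and 4.25 in the same order of samples at probe set 17343057. Its differences were 0.34 and 0.27. Pim3 (probe set 17314011) read 6.12 in EWS-OCT4A-GFP cells and 5.98 in GFP cells, a difference of 0.15. The 3 probe sets of Pim1 and Pim3 therefore differed by less than 0.455, the median absolute difference of all single-symbol probe sets that reached the floor.

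With the probe set of the highest mean standing for each gene, 2 of the 10 genes were higher (Lifr and Socs2), 2 were lower (Osmr and Jak1) and 6 stayed within 2-fold or under the floor. Of all 22180 genes 5.68% were higher and 7.25% lower. The differences of 7 members were above 0 and those of 3 below, with a median of 0.26 against 0 for all genes. The members were chosen with earlier results of these data known, so these counts describe them and support nothing further.

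**Figure D2:**
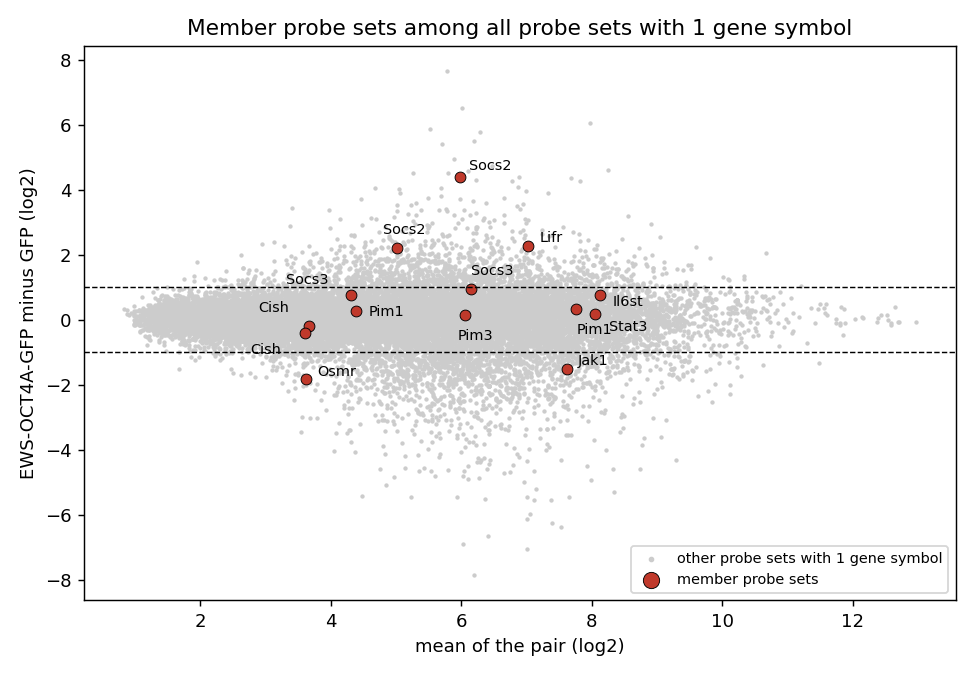
Log2 difference (EWS-OCT4A-GFP minus GFP, vertical axis) against the mean of the pair (log2, horizontal axis) for the 14 member probe sets (red) and the other single-symbol probe sets (grey), with dashed lines at 2-fold. Both Socs2 probe sets and Lifr lie above the upper line, Jak1 and Osmr lie under the lower line, and the other 9 member probe sets lie between the lines, from -0.39 to 0.94.

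Other genes of the pathway were counted from lists drawn up from general knowledge, with earlier results of these data known. The counts therefore describe the lists and support nothing further. Of 10 measured ligand genes of the IL-6 family, 0 were higher and 1 was lower, beside 5.68% and 7.25% of all genes. Their median difference was -0.25. Of the 10, 5 reached the floor, and of all single-symbol probe sets that did, 9.28% were higher and 11.7% lower. The lower one was Lif itself, with 5.09 in EWS-OCT4A-GFP cells and 6.24 in GFP cells, a difference of -1.15. LIF was also supplied in the medium. Il27, Osm and Clcf1 differed by -0.34, -0.44 and -0.13 and were not called. The EWS-OCT4A-GFP values of Osm and Clcf1 were under the floor.

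Among 6 other measured receptor genes of this family 1 was higher and 2 were lower, beside 5.68% and 7.25% of all genes. Their median was -0.06, or -0.61 over the 4 at or above the floor. Of all single-symbol probe sets that reached the floor, 9.28% were higher and 11.7% lower. Cntfr, the CNTF receptor subunit that acts with LIFR and gp130, read 5.77 in EWS-OCT4A-GFP cells and 4.75 in GFP cells, a difference of 1.02. It fell short of 2-fold with the arrays centred on their medians (0.99) and under loess centring (0.95). Il6ra, the IL-6-binding subunit, read 5.11 in EWS-OCT4A-GFP cells and 6.80 in GFP cells, a difference of -1.69. Csf3r, the G-CSF receptor, read 3.98 in EWS-OCT4A-GFP cells, under the floor, and 5.56 in GFP cells, a difference of -1.58. Il27ra differed by 0.36 and was not called. The called receptor genes of the family thus included differences of both signs.

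Of 7 other measured JAK and STAT genes 1 was higher and 1 lower, beside 5.68% and 7.25% of all genes, with a median of -0.01. Jak2, the JAK of growth hormone and erythropoietin receptors, read 5.26 in EWS-OCT4A-GFP cells and 6.99 in GFP cells, a difference of -1.73 and of the same sign as Jak1. Tyk2, the other measured JAK, differed by 0.11. Stat4, which in lymphocytes mediates the response to IL-12, read 6.27 in EWS-OCT4A-GFP cells and 3.41 in GFP cells, a difference of 2.86 with the GFP value under the floor. Stat5a differed by -0.68 and Stat5b by 0.70, and neither was called. The EWS-OCT4A-GFP value of Stat5a and the GFP value of Stat5b were under the floor.

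Among 16 other SOCS, PIM, PIAS and phosphatase genes 1 was higher and 1 lower, beside 5.68% and 7.25% of all genes. The median was -0.04. Pim2, the third PIM kinase, read 6.34 in EWS-OCT4A-GFP cells and 5.08 in GFP cells, a difference of 1.26 against 0.34 for Pim1 and 0.15 for Pim3. Pias1, an E3 SUMO ligase that inhibits STATs, read 7.65 in EWS-OCT4A-GFP cells and 9.24 in GFP cells, a difference of -1.59, while Pias2 differed by 0.99. The phosphatase gene Dusp22 differed by -0.83 and was not called. The 5 other SOCS genes, Socs1, Socs4, Socs5, Socs6 and Socs7, lay between -0.64 and 0.29. Socs2 was therefore the 1 SOCS gene of the 8 measured that was called.

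The response genes of LIF and STAT3 in mouse embryonic stem cells were higher more often than lower. Of 26 measured, 10 were higher and 3 lower, beside 5.68% and 7.25% of all genes, and the median was 0.62 against 0. Of the 26, 25 reached the floor, and of all single-symbol probe sets that did, 9.28% were higher and 11.7% lower. Tfcp2l1, a naive pluripotency factor that STAT3 activates, read 8.92 in EWS-OCT4A-GFP cells and 7.62 in GFP cells, a difference of 1.30. Kat6b, a histone acetyltransferase, read 8.86 in EWS-OCT4A-GFP cells and 7.17 in GFP cells, a difference of 1.69, and the Polycomb subunit gene Eed differed by 1.58. Tbx3, a T-box factor of the naive state, differed by 1.42 and Bcl3, a nuclear partner of NF-kappaB, by 1.36.

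The largest differences among the response genes were those of Ier2, an immediate-early gene, with 6.57 in EWS-OCT4A-GFP cells and 3.74 in GFP cells, and Vim, an intermediate filament gene, with 8.89 and 6.75 in the same order. Their differences were 2.83 and 2.15, and a second probe set of Vim differed by 0.69 and was not called. The GFP value of Ier2 was under the floor. Icam1, an adhesion molecule, read 7.16 in EWS-OCT4A-GFP cells and 5.07 in GFP cells. The 3 lower ones were Cebpb, with a difference of -1.97, Zfp36, which encodes an mRNA-decay factor, with -1.70, and Nfkbiz, a nuclear I-kappaB protein, with -1.21. The EWS-OCT4A-GFP value of Cebpb was just under the floor. Myc, a STAT3 target in these cells, differed by -0.96 and Junb by -0.26.

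The genes of the SHP2-ERK and PI3K branches were lower where they were called. Of 15 measured, 0 were higher and 5 lower, beside 5.68% and 7.25% of all genes, with a median of -0.69. All 15 reached the floor, and of all single-symbol probe sets that did, 9.28% were higher and 11.7% lower. Gab2, a docking adaptor that recruits SHP2 and PI3K, read 3.85 in EWS-OCT4A-GFP cells and 8.71 in GFP cells, a difference of -4.86 with the EWS-OCT4A-GFP value under the floor. Akt1, the kinase downstream of PI3K, read 6.31 in EWS-OCT4A-GFP cells and 8.94 in GFP cells, a difference of -2.63. Pik3cb, a catalytic PI3K subunit, differed by -2.22, Gsk3b by -1.45 and Gab1, the related adaptor, by -1.29. Ptpn11, which encodes SHP2 itself, differed by -0.77 and was not called.

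**Figure D3:**
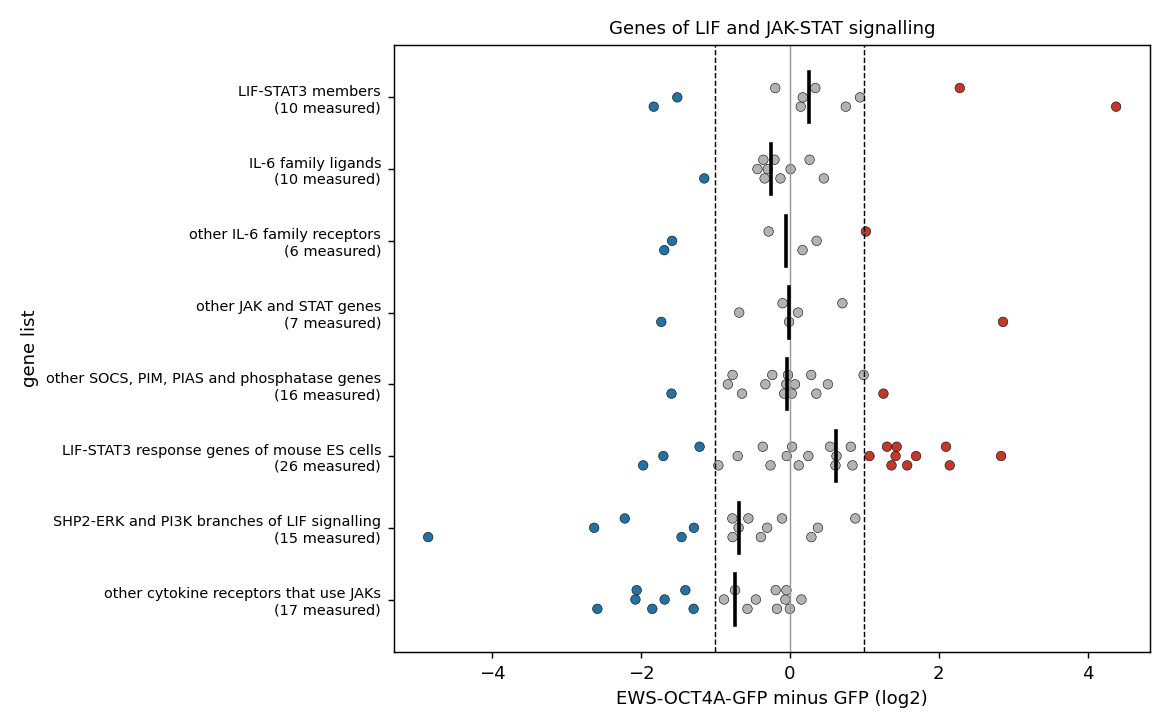
Log2 difference (EWS-OCT4A-GFP minus GFP, horizontal axis) of every measured gene of 8 lists (rows), with 1 point per gene, the list median as a black bar and dashed lines at 2-fold. Red points were called higher, blue points lower and grey points neither. The response genes have a median of 0.62, whereas the SHP2-ERK and PI3K list and the other cytokine receptors have medians of -0.69 and -0.74.

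Embryonic stem cell and trophectoderm markers mostly differed by at least 2-fold between the same samples. Those of fibroblasts, macrophages and blood mostly did not. By the same rule 5.68% of all genes were higher and 7.25% lower. Of 10 embryonic stem cell markers 9 were higher and 0 lower, with summed log2 values of 86.0 in EWS-OCT4A-GFP cells and 55.9 in GFP cells. The exception was Pou5f1, with 5.37 and 5.24, whose probe set may or may not detect the transgene. Of 10 trophectoderm markers 0 were higher and 8 lower, with sums of 47.7 in EWS-OCT4A-GFP cells and 78.7 in GFP cells. Of 8 primitive endoderm markers 4 were lower, with sums of 33.9 in EWS-OCT4A-GFP cells and 42.3 in GFP cells. Fibroblast markers numbered 8 with 1 lower, Postn, and of 6 macrophage and blood markers 0 were called. Within the trophectoderm list values ran from 3.62 to 6.96 in EWS-OCT4A-GFP cells and from 4.44 to 11.0 in GFP cells. Some markers of the other lists, among them Sox17, Dcn, Lum and Lyz2, lay under the floor in both samples. The part of these cell type markers in the differences of Lifr, Osmr, Jak1, Socs2 and the pathway lists was not tested.

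**Figure D4:**
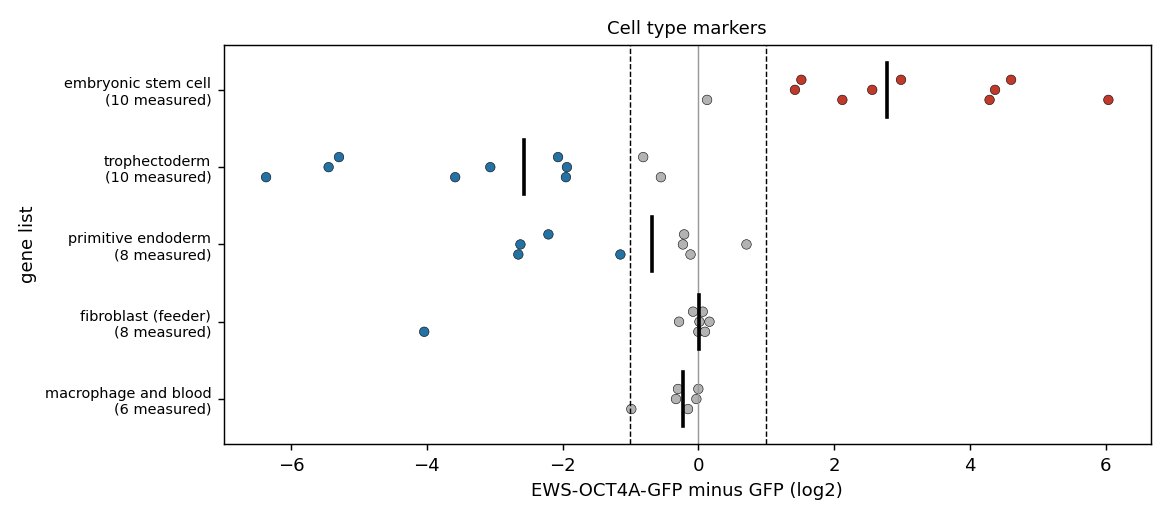
Log2 difference (EWS-OCT4A-GFP minus GFP, horizontal axis) of the measured markers of 5 cell types (rows), drawn as in the plot of pathway lists. Embryonic stem cell markers have a median of 2.77 and trophectoderm markers one of -2.56, and 7 of the 8 fibroblast markers lie within 2-fold.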

How the data were processed

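The authors deposited 1 table with a log2 RMA value for each probe set and sample. Per the submitters' processing notes, it was made with Affymetrix Expression Console 1.1 and RMA, which corrects background, quantile-normalizes the arrays and summarises probes by median polish. The log base is not stated and was taken as 2 from the range of 0.618 to 13.0. RMA compresses differences of weak probe sets, and a shift of most transcripts one way would not be visible. The series' design text speaks of duplicates, but each line has 1 column, and the sources used here do not say whether it is a mean. Precision is limited by the number of arrays.

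Probe sets were named from the platform table (1814 had several symbols and 8458 none). All 10 members matched RefSeq by symbol and gene ID. The probe set with the highest mean stood for a gene in lists. Every member probe set was named, and from each of the 8 pathway lists up to 4 genes with the largest absolute difference at or above the floor. Other genes named were chosen after their values were seen. The members and lists were chosen with earlier results of these data known, and no set test was run. Alternatives covered normalization, size threshold, floor and the handling of several probe sets. The calling rule was run on simulated data with an assumed noise and added differences above the 2-fold size. That run does not measure the error of the calls made here. Python 3.11.15, numpy 2.4.6, pandas 2.3.3 and statsmodels 0.14.6 (loess span 0.3) were used.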

Additional observations from a re-analysis of the deposited data

How the results depend on the processing

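No paired analysis was possible because there is 1 sample per group, and no replicate could be left out. Under median centring, quantile normalization and loess centring all 14 member differences kept their direction and their side of 2-fold, and the largest move was 0.0998. The count of 3 higher member probe sets was 6 at a 1.5-fold threshold. The count of 2 lower ones was 1 at a 3-fold threshold, with the floor at the 75th percentile or at 6 (log2), and with the floor on the mean of the pair. By construction the higher floors leave out Osmr. Counts over all single-symbol probe sets were 2857 higher and 2889 lower at 1.5-fold, and 486 and 803 at 3-fold, against 1318 and 1655 at 2-fold. Over genes at or above the floor only, which uses fewer genes, the median of the other IL-6 family receptors was -0.61 and that of the other cytokine receptors -1.29. With the probe sets of a gene averaged, the response genes had a median of 0.81. Among the genes named or called from the lists, Cntfr (0.99 under median centring, 0.95 under loess) and Ccnd3 (0.97 under loess) dropped under 2-fold, and Pias2 (1.02 under quantile normalization) passed it. The other 37 medians moved by less than 0.1. Signal over background is unknown, which limits the values of Osmr, Cish, Socs2 and the second Socs3 probe set near or under the floor.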

Other observations

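Receptors of other cytokines that signal through JAKs were lower in EWS-OCT4A-GFP cells where they were called. Of 17 measured genes 0 were higher and 7 lower, beside 5.68% and 7.25% of all genes, with a median difference of -0.74. Of the 17, 13 reached the floor, and of all single-symbol probe sets that did, 9.28% were higher and 11.7% lower. The type I interferon receptor subunit genes Ifnar1 and Ifnar2 differed by -1.29 and -2.58, and Ifngr2 of the interferon gamma receptor read 5.19 in EWS-OCT4A-GFP cells and 7.25 in GFP cells. Csf2ra, which binds GM-CSF, read 5.83 in EWS-OCT4A-GFP cells and 7.67 in GFP cells. Il13ra1 differed by -2.07, Il2rb by -1.68 and Il10rb by -1.40. The EWS-OCT4A-GFP values of Il13ra1 and Il2rb were under the floor, so the sizes of these differences are uncertain. Ghr, whose signal SOCS2 restrains, read 3.01 and 2.86, under the floor in both samples.

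The 3 genes whose pair of values lay nearest to that of Socs2, by Euclidean distance over the 2 samples, were Etv5, Gdf3 and Fgf4, with differences of 4.57, 4.53 and 4.29. Those nearest to Osmr were Cdk14, Rasgrp1 and Csta2, with differences of -1.71, -1.95 and -2.01. Each named neighbour had its lower value under the floor, so the sizes of these differences are uncertain. Symbols of predicted or unnamed genes, microRNAs, small nucleolar RNAs, and olfactory and vomeronasal receptors were left out of the search. Values of different probe sets are not on a common scale of abundance, and likeness over 2 samples is a description only.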
